A study of Mus musculus with 12 samples.

Results

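The genes described here encode plasma proteins of complement, coagulation and fibrinolysis. They were taken by symbol from a list of 42, all 42 of which were among the 24527 gene symbols of the count table. All 42 passed the filter on low counts, as did 13204 genes in all, and these 13204 are the genes tested. Liver messenger RNA had been sequenced from mice aged 39 weeks in 12 libraries, 3 in each of 4 groups. The groups were females and males from natural mating and females and males from in vitro fertilization (IVF), where egg and sperm meet in a dish and the embryo is then placed in a foster mother. In every group the mothers were CF1, an outbred stock, and the fathers B6SJL, a hybrid of inbred strains, so that the animals of a group were not genetically identical. The IVF groups followed a protocol of the Jackson Laboratory. The labels give no litter and do not say in words that each library is a separate animal, so p-values measure the spread between these libraries, which may be technical in part. The titles of IVF female 1 and IVF male 2 share a number, and whether these libraries share an origin is not stated.

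Complement is a cascade of serum proteins. The classical and lectin pathways (C1r, C1s, C2, C4 and the mannose-binding lectins with their serine proteases) and the alternative pathway (factor B) converge on C3, and the terminal components from C5 onward then assemble into the membrane attack pore. Coagulation runs through the vitamin K-dependent serine proteases and the contact system to thrombin, which cuts fibrinogen to fibrin, and plasmin dissolves the clot. Hepatocytes make most of these proteins, and in mice the haemolytic activity of serum complement has long been known to be higher in males.

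The promoter stretches of 4 genes are shown first, because these were the members higher in males than in females at an adjusted p under 0.05. Each runs from 250 to 51 bases before the RefSeq start (GRCm38.p6), 5′ to 3′ on the gene's strand. C6 lies at chr15:4726960-4727159 (plus strand), C8a at chr4:104876449-104876648 (minus strand), C9 at chr15:6445096-6445295 (plus strand) and C4bp at chr1:130661669-130661868 (minus strand). Capitals mark matches on either strand to the letters TTCNNNGAA (STAT), TTGCNNAA (C/EBP), AAAGTCC (HNF4 core) and TGTTTNC (forkhead), where N is any base. None of the matches overlapped.
C6: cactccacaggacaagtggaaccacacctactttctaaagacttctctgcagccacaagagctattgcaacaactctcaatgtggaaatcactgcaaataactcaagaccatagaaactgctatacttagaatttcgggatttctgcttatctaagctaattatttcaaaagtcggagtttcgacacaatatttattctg
C8a: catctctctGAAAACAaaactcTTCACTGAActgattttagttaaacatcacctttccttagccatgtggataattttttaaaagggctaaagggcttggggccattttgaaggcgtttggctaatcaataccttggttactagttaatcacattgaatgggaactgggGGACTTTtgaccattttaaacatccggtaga
C9: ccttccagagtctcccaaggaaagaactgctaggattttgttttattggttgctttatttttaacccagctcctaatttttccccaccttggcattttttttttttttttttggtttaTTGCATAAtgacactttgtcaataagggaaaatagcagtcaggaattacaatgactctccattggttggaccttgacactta
C4bp: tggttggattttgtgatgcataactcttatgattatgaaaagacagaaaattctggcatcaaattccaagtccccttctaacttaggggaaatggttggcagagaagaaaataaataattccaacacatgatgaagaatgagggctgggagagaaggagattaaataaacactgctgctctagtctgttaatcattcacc

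The C8a window held 3 matches: forkhead at 241 to 235 bases before the start, STAT at 228 to 220 and the HNF4 core at 81 to 75. C9 held a C/EBP match at 132 to 125 bases. The C6 and C4bp windows held none of these letters, nor did the same windows of Mbl2 and F7, the members lower in males. Of 32841 promoter windows of this length, 5.76% held the STAT letters, 8.11% the C/EBP letters, 2.83% the HNF4 core and 14.7% the forkhead letters. RefSeq windows matched 33 of the 42 genes by symbol, and 15.2%, 21.2%, 3.03% and 21.2% of those 33 held the same letters in that order. Windows for C2, C4b, Masp1, Cfb, Cfi, Serping1, Proc, Kng1 and Plg were not used here. A match is a description of the letters in the window only.

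Total counts ran from 6826534 to 27832271 per library, and the lowest count of any member in any library was 105, for C6. The 2 smallest libraries, IVF female 1 (6826534 counts) and natural female 2 (8056230 counts), stood apart from the 4 other female libraries. Over all genes tested, 12.31% differed between those 2 and the other 4 by more than 1 on the log2 scale, as did 19.05% of the members. Among the members the differences ran from -1.57 for C4b and -0.98 for C2 to 1.43 for Fgg and 1.77 for Cpb2. Hepatocyte markers (8 of 8 detected) summed to 73408 to 107081 CPM (the count scaled to library size with TMM factors) in the 12 libraries. Kupffer cell and macrophage markers summed to 144 to 448 CPM, and adipose markers to at most 1.10 CPM.

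The 42 members together took from 4.10% to 7.83% of a library's counts. Among females the share was 6.33% ± 1.30 (SD, n = 3) after IVF and 5.68% ± 0.39 (SD, n = 3) after natural conception. Among males it was 4.39% ± 0.35 (SD, n = 3) after IVF and 5.10% ± 0.77 (SD, n = 3) after natural conception. These are shares of raw counts, and the order of the natural groups depended on the scaling. With TMM scaling the members summed to 43887 to 58672 CPM in natural females and 47481 to 68251 CPM in natural males. After IVF the sums were 50831 to 79300 CPM in females and 44518 to 45933 CPM in males. The highest share, 7.83%, was that of the small library IVF female 1. Bulk RNA cannot tell fewer cells of a type from less RNA per cell, which applies to every difference given here.

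Differences that passed the test were found between the sexes only, and C6, C8a and C9 at the end of the complement cascade had the largest of them. Averaged over both modes of conception, 4 members were higher in males (C6, C8a, C9 and C4bp) and 2 were lower (Mbl2 and F7) in edgeR's quasi-likelihood test with Benjamini-Hochberg adjustment over all genes. Of all genes tested, 3.57% were called higher in males and 3.63% lower, or 7.2% in either direction, against 6 of 42 members. Male and female libraries did not overlap for 3 of 42 members, C6, C8a and C8b, against 5.75% of all genes. DESeq2 called 8 members, adding C8b and C1ra, where it called 12.8% of all genes. Within natural conception 2 members were called (C6 and C4bp, 1.77% of all genes), and within IVF 1 (C6, 2.19% of all genes). Males stood above all females after natural conception for 12 of 42 members (10.1% of all genes) and below for 1, Mbl2 (9.85%). After IVF they stood above for 3 (C6, C8a and C8b, 11.8% of all genes) and below for 11 (10.1%), among them C3, F7, F10, Fgg, Plg and Pros1. These separations were counted with TMM scaling only. By library size alone some of the 12, such as C1ra and Vtn, would overlap. After natural conception 31 of 42 members were above 0 with TMM scaling and 17 of 42 by library size alone. The median of all genes was -0.024 in the first setting and -0.34 in the second.

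**Figure D1:**
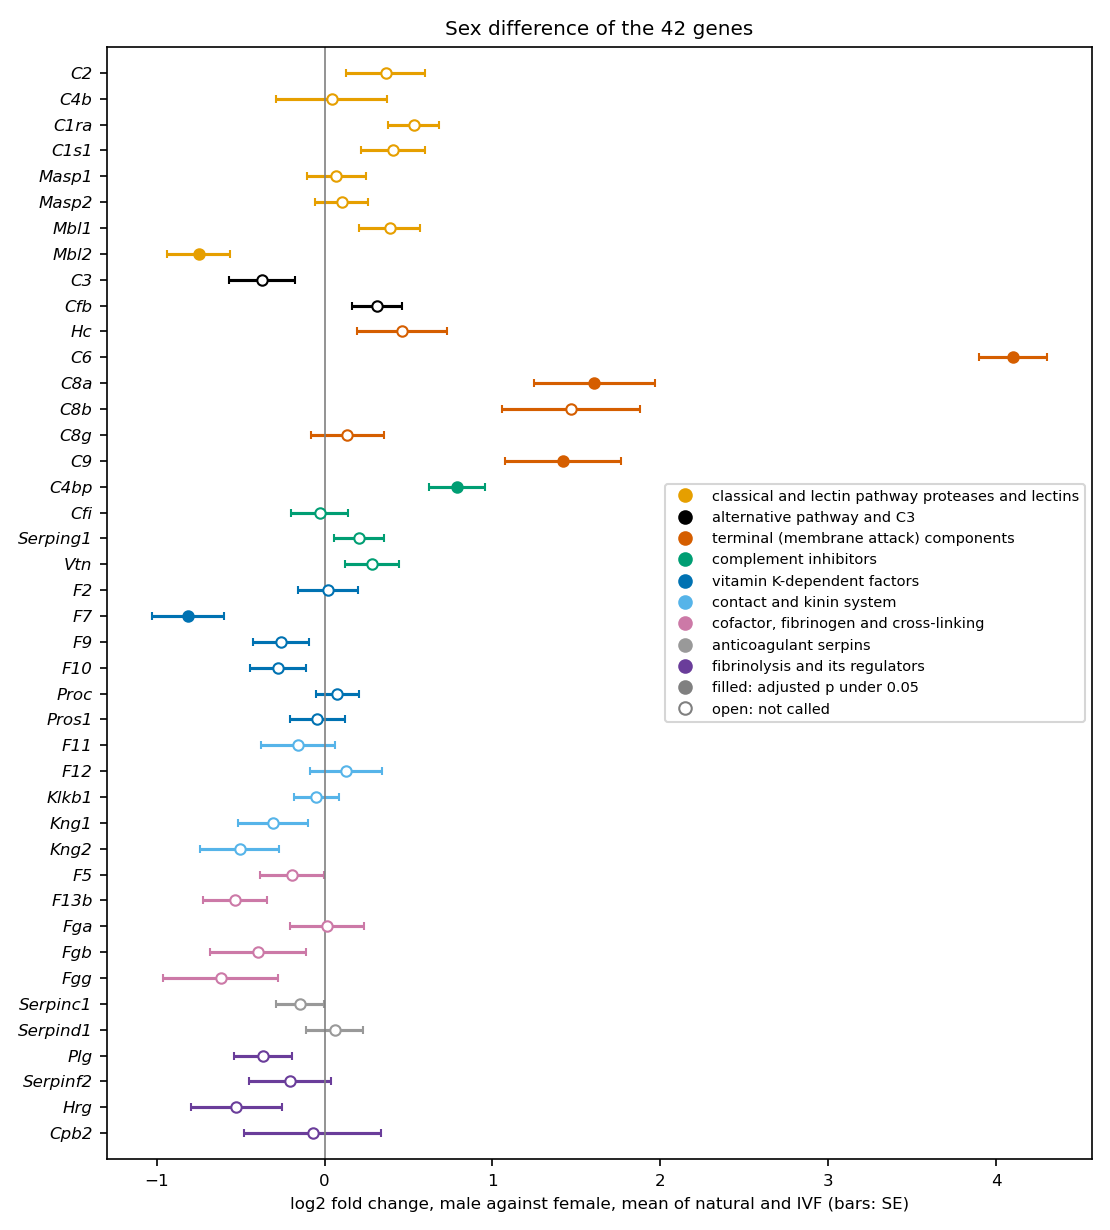
Log2 fold change of each of the 42 genes, male against female, averaged over natural and IVF conception, with its standard error as the bar and colour by role. Filled points passed an adjusted p under 0.05. C6 stands at 4.10, C8a, C8b and C9 lie between 1.42 and 1.61, and the other genes lie between -0.81 and 0.79.

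The terminal components are the proteins of the membrane attack complex. Of these 6 genes, 3 were called higher in males (C6, C8a and C9) and 0 lower. Their median log2 fold change was 1.44, against -0.011 over all genes. All 6 were above 0 with TMM scaling, but C8g was below 0 by library size alone and without the 2 smallest libraries, where 5 of 6 were above 0. Scaling by library size alone moved the median of all genes to -0.22 and that of the terminal group to 1.26.

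C6, which binds C5b and starts the assembly of the pore, lies on chromosome 15 from 4727175 to 4814967 on the plus strand. It was at 20.63, 16.96 and 14.75 CPM in the IVF females and at 16.5, 12.6 and 10.7 CPM in the natural females. It was at 297.5, 213.0 and 345.1 CPM in the IVF males and at 310.6, 209.4 and 197.9 CPM in the natural males. The lowest male library was thus far above the highest female library, in both modes of conception. The mean was 262 ± 63.0 CPM (SD, n = 6) in males and 15.4 ± 3.50 CPM (SD, n = 6) in females. C6 was higher in males by 4.10 ± 0.20 on the log2 scale (estimate ± SE), or 17.2-fold, with an adjusted p of 2.76e-07 in edgeR's test. The difference was 4.17 ± 0.29 after natural conception and 4.04 ± 0.29 after IVF, with adjusted p of 1.2e-05 and 1.39e-05. C6 was called in each of these contrasts under every alternative tried and without any single library.

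C8 is made of the alpha and beta chains, which enter the pore, and of the gamma chain, a lipocalin. C8a (chromosome 4, 104815679 to 104876398, minus strand) was at 785, 130 and 377 CPM in IVF females and at 453, 390 and 206 CPM in natural females. It was at 1092, 876 and 1338 CPM in IVF males and at 1258, 1363 and 1187 CPM in natural males. All 6 male libraries were above all 6 female libraries, and the highest female value was that of the small library IVF female 1. C8a was higher in males by 1.61 ± 0.36 (log2), 3.05-fold, with an adjusted p of 0.0218. Without IVF female 3 or IVF male 3 its call was lost (log2 differences of 1.57 and 1.53, highest adjusted p 0.0547).

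C8b, 11130 bases from C8a and on the other strand, was at 225, 31.2 and 157 CPM in IVF females and at 129, 124 and 45.8 CPM in natural females. In IVF males it was at 245, 254 and 448 CPM, and in natural males at 293, 323 and 378 CPM. Male and female libraries did not overlap here either. The difference of 1.47 ± 0.41 (log2) lay just outside the threshold, with an adjusted p of 0.0542, and C8b is given here because its values, once seen, followed those of C8a. Per transcript length, C8b stood at 0.359 to 0.672 of C8a in the 12 libraries, so that the ratio of these neighbours moved within that range while C8a itself ran from 130 to 1363 CPM. C8g, on chromosome 2, was between 127 and 276 CPM in females and between 146 and 275 CPM in males, and its difference was 0.14 ± 0.22 (adjusted p 0.738). Its per-length ratio to C8a ran from 0.342 to 5.13.

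C9 forms the ring of the pore (chromosome 15, 6445327 to 6498751, plus strand). Its levels were 731, 170 and 280 CPM in IVF females and 224, 337 and 151 CPM in natural females. They were 571, 658 and 1054 CPM in IVF males and 1097, 836 and 700 CPM in natural males. The groups overlapped through 1 library, since IVF female 1 stood above IVF males 1 and 2 and natural male 3. C9 was higher in males by 1.42 ± 0.35 (log2), 2.67-fold, with an adjusted p of 0.0316. The call was lost without any one of 8 libraries, which were all except IVF female 1, natural female 2 and IVF males 1 and 2 (adjusted p from 0.0530 to 0.0812). Without the 2 smallest libraries the call remained.

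Hc encodes C5, whose cleavage opens the terminal pathway, and had the highest mean CPM of the terminal genes. It was at 1366, 661 and 513 CPM in IVF females, 707, 819 and 353 CPM in natural females, 897, 869 and 652 CPM in IVF males and 1104, 1266 and 1379 CPM in natural males. Natural males were above all natural females, while the IVF groups overlapped. The mean sex difference was 0.46 ± 0.27 (log2, adjusted p 0.317). Without the 2 smallest libraries Hc was called higher in males, as was C8b. C6 per transcript length stood at 0.0286 to 0.0574 of Hc in females and at 0.272 to 1.002 of it in males, and these ranges did not overlap.

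**Figure D2:**
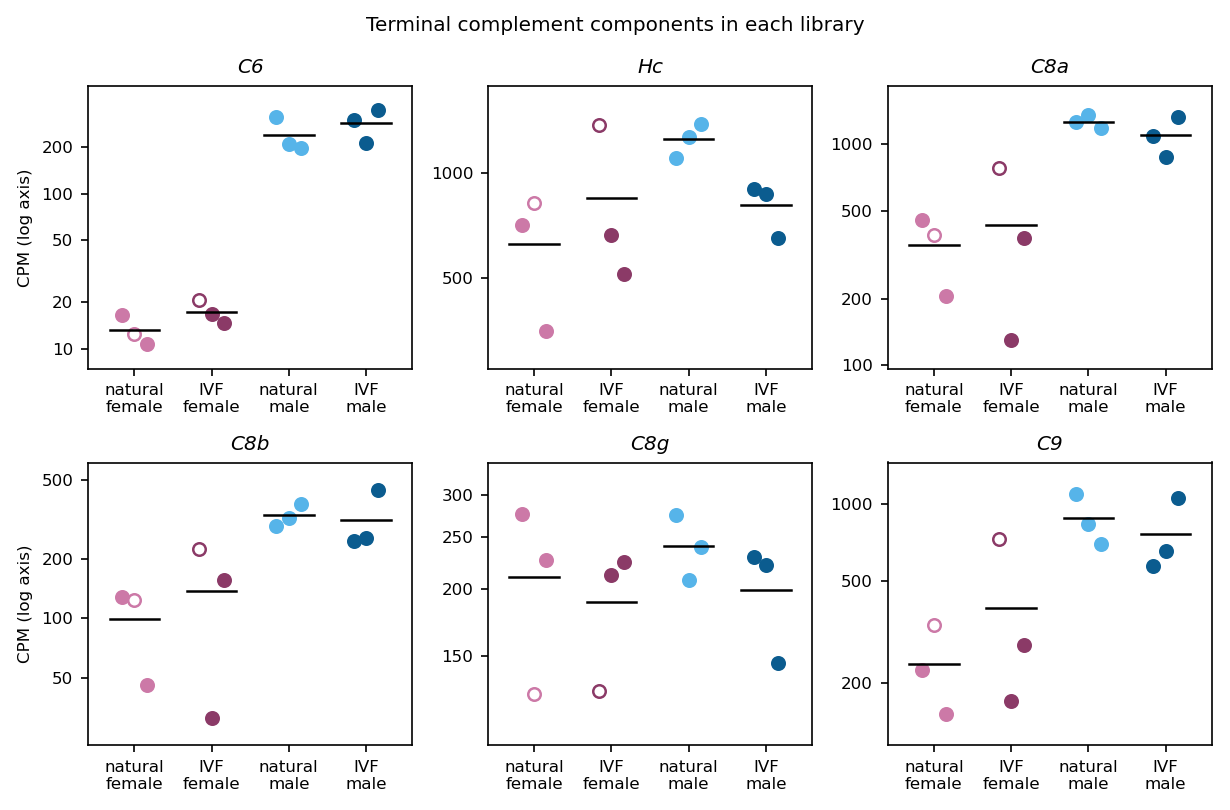
TMM-scaled CPM on a log axis for the 6 terminal components in each of the 12 libraries, by sex and mode of conception. Points are libraries, black lines group means and open points the 2 smallest libraries. C6, C8a and C8b separate the sexes completely, C9 does so except for the open IVF female point at 731 CPM, and C8g does not.

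Among the complement inhibitors, 1 of 4 was called higher in males and 0 lower. C4bp is the alpha chain of C4b-binding protein, a cofactor for the breakdown of C4b (chromosome 1, 130634773 to 130661632, minus strand). It was at 263, 293 and 350 CPM in IVF females and 309, 216 and 185 CPM in natural females. It was at 490, 392 and 341 CPM in IVF males and 445, 602 and 525 CPM in natural males. Natural males were above all females, and IVF male 3 lay just under IVF female 3. The mean difference was 0.79 ± 0.17 (log2), 1.73-fold, with an adjusted p of 0.0166, and it remained called without any single library (highest adjusted p 0.0469). After natural conception it was 1.15 ± 0.24 (adjusted p 0.0338) and after IVF 0.43 ± 0.24 (adjusted p 0.436). The change of the sex difference was -0.71 ± 0.33, with an unadjusted p of 0.0539 and an adjusted p of 1. The natural call was lost by library size alone, in a fit to the natural groups only, without the 2 smallest libraries and without any one of 7 libraries. The pseudogene C4bp-ps1 could share reads with C4bp.

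Vitronectin (Vtn), which keeps the forming attack complex out of membranes, had the highest mean of this group. It was at 1816, 2114 and 2140 CPM in IVF females, 2481, 1518 and 2275 CPM in natural females, 2527, 2041 and 2184 CPM in IVF males and 2523, 2949 and 2880 CPM in natural males. With TMM scaling natural males were above all natural females, which would not hold by library size alone. The IVF groups overlapped, and the mean sex difference was 0.28 ± 0.16 (log2, adjusted p 0.303). Factor I (Cfi), the protease that cleaves C3b and C4b, was at -0.03 ± 0.17 and the C1 inhibitor gene Serping1 at 0.21 ± 0.15.

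In the classical and lectin pathways 7 of 8 genes were above 0 in the sex contrast (49% of all genes), but 0 were called higher and 1, Mbl2, lower in males. Mbl2 encodes mannose-binding lectin C, which recognises microbial sugars (chromosome 19, 30232942 to 30239687, plus strand). It was at 612, 692 and 536 CPM in IVF females and 455, 503 and 538 CPM in natural females. It was at 304, 556 and 408 CPM in IVF males and 309, 285 and 174 CPM in natural males. Natural males were below all females, and IVF male 2 was within the female range. The difference was -0.75 ± 0.19 (log2), 1.68-fold lower in males, with an adjusted p of 0.0345. The call was lost without the 2 smallest libraries (adjusted p 0.0537) and without any one of 9 libraries, all except IVF female 3, IVF male 2 and natural male 1 (adjusted p up to 0.0875). Its paralog Mbl1, mannose-binding lectin A, stood on the other side of 0, at 0.39 ± 0.18 (adjusted p 0.226).

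C1ra and C1s1 encode the proteases of the C1 complex and lie 6901 bases apart. C1ra was higher in males by 0.53 ± 0.15 (log2) with an adjusted p of 0.0595, just outside the threshold, and DESeq2 called it. C1s1 was at 0.41 ± 0.19 (adjusted p 0.226). Near-identical copies (C1rb, C1s2) could take reads from both. C4b, the gene of complement C4, had the highest mean of this group. It was at 844, 2283 and 1925 CPM in IVF females, 2026, 495 and 1517 CPM in natural females, 1933, 1218 and 1203 CPM in IVF males and 1468, 1583 and 1918 CPM in natural males. The lowest values, 844 and 495, were those of the 2 smallest libraries, and the sex difference was 0.04 ± 0.33. Its near-identical neighbour C4a was called higher in males (1.76 ± 0.40, adjusted p 0.0242), and how reads were divided between the C4 genes was not tested.

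C3, on which all pathways converge, was the most abundant member. It was at 22866, 13747 and 14703 CPM in IVF females, 13893, 14805 and 11676 CPM in natural females, 11775, 10011 and 9576.5 CPM in IVF males and 10359.6, 16303 and 12843 CPM in natural males. IVF males were below all IVF females, and the natural groups overlapped. Its mean sex difference was -0.37 ± 0.20 (log2, adjusted p 0.276). Factor B (Cfb), its partner in the alternative convertase, was at 0.31 ± 0.15 (adjusted p 0.229). Cfb lies 85 bases from C2 on the same strand, and C2 was at 0.36 ± 0.24 (adjusted p 0.373).

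Among the coagulation genes, 1 of 6 vitamin K-dependent genes was called lower in males and 0 higher, and 0 were called among the contact, fibrinogen, serpin and fibrinolysis genes. F7 encodes factor VII, which starts coagulation with tissue factor (chromosome 8, 13026034 to 13035809, plus strand). It was at 231, 111 and 138 CPM in IVF females and 138, 225 and 108 CPM in natural females. It was at 71.4, 84.5 and 75.5 CPM in IVF males and 92.4, 115 and 109 CPM in natural males. IVF males were below all females, while natural males 2 and 3 were within the female range. The highest female values, 231 and 225 CPM, were those of the 2 smallest libraries. The difference was -0.81 ± 0.21 (log2), 1.76-fold lower in males, with an adjusted p of 0.0428. It was lost without any one of 10 libraries, all except IVF female 2 and natural female 3 (adjusted p from 0.0556 to 0.0984), and without the 2 smallest libraries together it remained at a smaller size (-0.48, adjusted p 0.0396). Factor X (F10), 1498 bases away, was at -0.28 ± 0.17 (adjusted p 0.337).

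**Figure D3:**
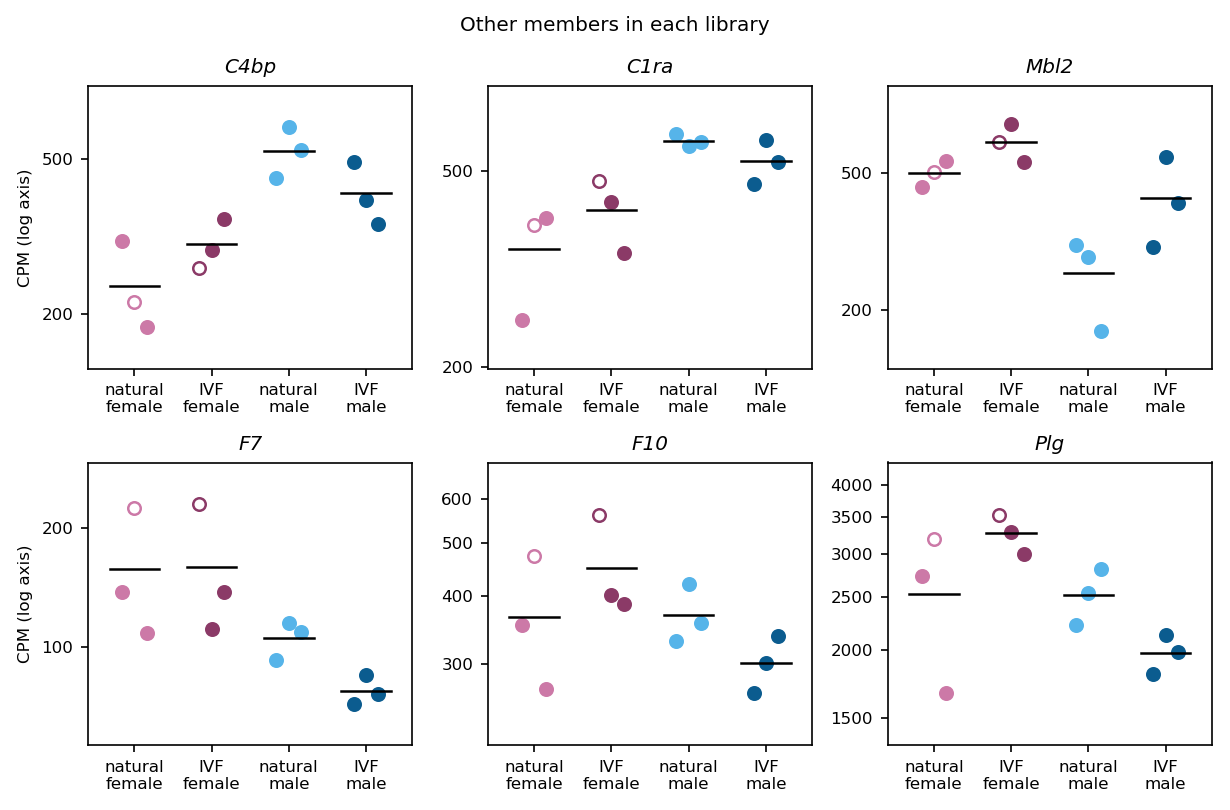
TMM-scaled CPM on a log axis for C4bp, C1ra, Mbl2, F7, F10 and Plg in each library, by sex and mode of conception. Points are libraries, black lines group means and open points the 2 smallest libraries. C4bp is highest in natural males, Mbl2 is lowest in natural males, and the 2 open F7 points stand at 231 and 225 CPM.

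The medians of the other groups in the mean sex contrast lay near 0 or below it. They were -0.15 for the vitamin K-dependent factors, -0.16 for the contact and kinin system, -0.40 for factor V, fibrinogen and factor XIII B, -0.04 for the anticoagulant serpins and -0.29 for fibrinolysis. These averages join different values by mode of conception. After natural conception the same medians were 0.08, 0.05, -0.04, 0.16 and 0.07, and after IVF they were -0.46, -0.49, -0.66, -0.24 and -0.70, in that order of groups. The lowest single values after F7 and Mbl2 were those of the fibrinogen gamma chain Fgg (-0.62 ± 0.34, adjusted p 0.297), F13b (-0.53 ± 0.19, adjusted p 0.117) and Hrg (-0.52 ± 0.27, adjusted p 0.269). By library size alone, F10, F13b, Plg and C8b were called as well, which made 10 members, and the median of all genes was then -0.22. In that setting 1625 of 13204 genes were called, 1373 of them lower in males. With TMM scaling 951 were called, 479 of them lower.

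Some markers of other liver cell types were also called between the sexes, where 3.57% of all genes were called higher in males and 3.63% lower. Among sinusoidal endothelial (8 tested), cholangiocyte (5 tested) and neutrophil markers (4 tested) 0 were called. Kupffer cell and macrophage markers (8 of 8 tested, none at 0 in any library) were lower in males for 3 of 8 (Vsig4, Clec4f and Timd4), and summed to 144 to 230 CPM in IVF males, 269 to 305 in natural males, 308 to 448 in IVF females and 298 to 396 in natural females. Stellate cell and fibroblast markers (8 of 8 tested, none at 0) were lower in males for 3 of 8 (Dcn, Ecm1 and Lrat), with sums of 246 to 368 CPM in males and 364 to 496 CPM in females. Of 5 tested lymphocyte markers 2 were lower in males (Cd79b and Nkg7), with sums of at most 4.66 CPM. Hepatocyte markers (8 of 8 tested, 0 called) summed to 73408 to 100338 CPM in males and 89572 to 107081 CPM in females. Alb made up most of these sums, at 44666 to 60852 CPM in males and 69560 to 81524 CPM in females. By gene, 5 of the 8 were higher in males on average and 3 lower, with a median of 0.28. The lowest of them, Ass1 at -0.97, had only 10 to 41 counts per library. After natural conception 6 of 8 were above 0 (median 0.40), and after IVF 4 of 8 (median 0.07). Of 23 acute-phase genes outside the list 5 were higher in males on average (Hp, Saa1, Saa2 and Saa3 with the smallest adjusted p) and 0 lower. After natural conception 4 of these 23 were called higher, with a median of 0.86, and after IVF 0 were called, 15 of 23 were below 0 and the median was -0.43. The part of these shifts in the member differences was not tested.

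Of 27 other complement genes tested, 4 were called in the sex contrast, 2 in each direction. C4a and clusterin (Clu, 0.55 ± 0.15, adjusted p 0.0454), an inhibitor of the attack complex, were higher in males. The collectin Colec10 (-0.84 ± 0.19, adjusted p 0.0255) and the C1q chain C1qb (-0.63 ± 0.16, adjusted p 0.0376), which macrophages make, were lower. Of 20 other coagulation and fibrinolysis genes, 2 were higher, the protease inhibitors Serpine2 (3.34 ± 0.44, adjusted p 0.000777) and Serpina1e (2.82 ± 0.51, adjusted p 0.00677), the latter one of a family of near-identical copies. Of 9 genes of the vitamin K cycle and factor secretion, Tpst1 (0.49 ± 0.11) and Vkorc1l1 (0.47 ± 0.11) were higher and Nqo1 (-1.19 ± 0.24) lower. C7, the terminal component not among the 42, was at 0.0579 to 0.594 CPM in all libraries.

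Of 16 hepatocyte transcription factors, 4 were called higher in males and 2 lower. Bcl6 (2.02 ± 0.42, adjusted p 0.0149), Foxa3 (1.16 ± 0.24, adjusted p 0.0138) and Cebpd (1.19 ± 0.27, adjusted p 0.0248) were higher. Cux2, a female-biased repressor, was lower (-6.75 ± 0.60, adjusted p 3.8e-05).

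The comparison of IVF with natural conception asked whether the mode of conception altered these genes in each sex. In females 0 of 42 members were called, as were 0% of all genes. At an unadjusted p under 0.05 edgeR found 1 member (Masp1) and 3.7% of all genes, and after adjustment DESeq2 called 0 members (0.0303% of all genes) and limma voom 0. The groups did not overlap for 1 of 42 members, again Masp1, against 7.42% of all genes. In males 0 of 42 were called (0.00757% of all genes), 2 had an unadjusted p under 0.05 (Pros1 and Mbl2, 2.69% of all genes), and DESeq2 called 0 (0.0379% of all genes), as did limma voom. The groups did not overlap for 9 of 42 members in males, all 9 lower after IVF, against 8.91% of all genes in either direction and 4.07% lower.

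The signs of the estimates differed between the sexes. In females 39 of 42 members were above 0 (47.8% of all genes), with a median of 0.23 against -0.015 over all genes. In males 3 of 42 were above 0 (51.6% of all genes), with a median of -0.26 against 0.0098. Without IVF female 1, 29 of 42 were above 0 in females and the median was 0.13. Without natural female 3, 35 of 42 were above 0 in females and the median was 0.14. By library size alone 35 of 42 were above 0 in females and 9 of 42 in males. The member median was then 0.16 in females, against -0.084 over all genes, and -0.125 in males, against 0.14. The members are measured in the same libraries, and these counts carry no test.

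The change of the IVF effect between the sexes was tested for each gene. It was called for 0 of 42 members and 0% of all genes. The unadjusted p was under 0.05 for 1 member in edgeR (Pros1, 3.87% of all genes) and DESeq2 called 0 members (0.0682% of all genes), as did limma voom. The estimate was above 0 for 1 of 42 members, Mbl2, and for 53.6% of all genes, with a median of -0.50 over members and 0.03 over all genes. It was above 0 for 4 of 42 without IVF female 1 and for 7 of 42 by library size alone. In the latter setting the median was -0.28 over members and 0.23 over all genes.

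**Figure D4:**
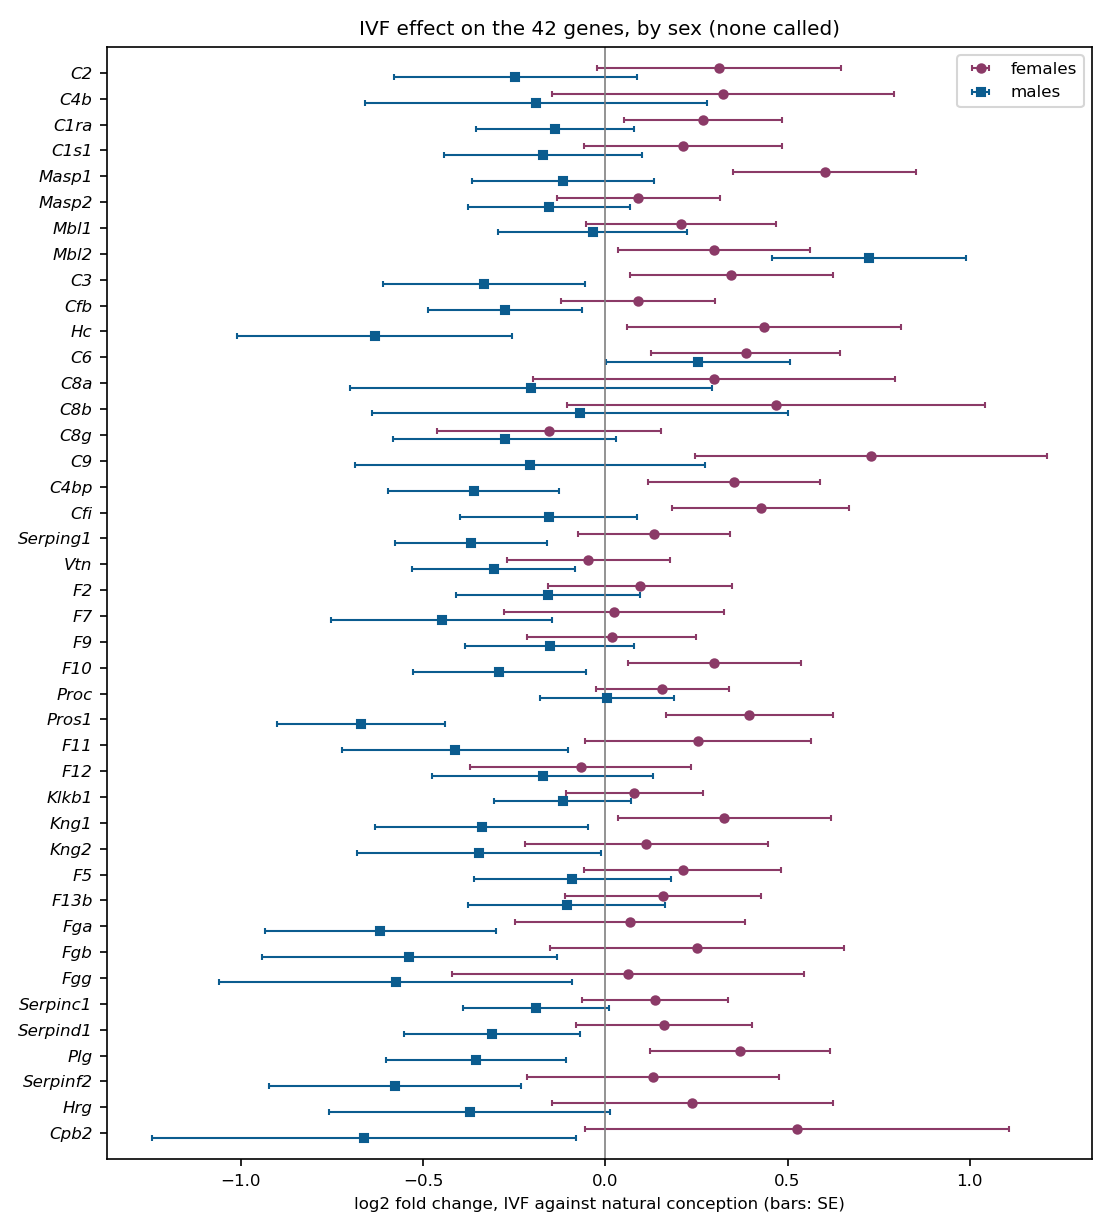
Log2 fold change of each of the 42 genes, IVF against natural conception, in females (circles) and males (squares), with standard errors as bars. None passed an adjusted p under 0.05. Most circles lie right of 0 and most squares left of it, at sizes of 0.73 and less.

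Pros1 encodes protein S, the cofactor of activated protein C that restrains clotting. It was at 106, 73.5 and 67.4 CPM in IVF females and 64.5, 69.3 and 53.5 CPM in natural females. It was at 61.6, 53.0 and 50.6 CPM in IVF males and 64.8, 89.6 and 109 CPM in natural males. With TMM scaling IVF males were below all natural males, and the female groups overlapped. The IVF effect was -0.67 ± 0.23 in males (log2, unadjusted p 0.0132, adjusted p 1 in edgeR) and 0.40 ± 0.23 in females (unadjusted p 0.112), or 0.20 in females without IVF female 1. The difference of these effects was -1.07 ± 0.33, with an unadjusted p of 0.00682 and an adjusted p of 1, and ran from -1.25 to -0.87 over the libraries left out.

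Masp1, a protease that docks on mannose-binding lectin, was at 163, 103 and 101 CPM in IVF females, 88.8, 98.5 and 54.1 CPM in natural females, 86.0, 107 and 107 CPM in IVF males and 110, 114 and 101 CPM in natural males. IVF females were above all natural females by a margin of a few CPM. The effect in females was 0.60 ± 0.25 (unadjusted p 0.0336, adjusted p 1), 0.37 without IVF female 1, whose 163 CPM was the highest, and 0.40 without natural female 3. In males it was -0.12 ± 0.25. Mbl2, whose values are given above, was at 0.72 ± 0.26 in males (unadjusted p 0.0186, adjusted p 1), with IVF male 1 inside the natural range, and at 0.47 without IVF male 2. C9 was at 0.73 ± 0.48 in females, and without IVF female 1, at 731 CPM, it was at -0.056.

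Cfi was at 889, 601 and 636 CPM in IVF females, 580, 629 and 372 CPM in natural females, 564, 492 and 645 CPM in IVF males and 605, 719 and 572 CPM in natural males, and its effect in females was 0.43 ± 0.24. That effect was 0.25 without IVF female 1 and 0.25 without natural female 3. Serping1 was at 1050.5, 751 and 785 CPM in IVF females, 844, 756 and 759 CPM in natural females, 1022, 739 and 746 CPM in IVF males and 957, 1119 and 1162 CPM in natural males. Its effect in males was -0.37 ± 0.21. By library size alone it was -0.22. Neither gene separated IVF from natural conception in either sex, and both had an adjusted p of 1.

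Fibrinogen is built from the chains of Fga, Fgb and Fgg, which lie within 1 cluster on chromosome 3 and are induced in the acute phase. Fga was at 6882, 4657 and 4541 CPM in IVF females, 5643, 5272 and 4428 CPM in natural females, 3982, 4274 and 4557 CPM in IVF males and 4031, 9851 and 5773 CPM in natural males. Natural males 2 and 3 stood above the IVF males, and natural male 1 was within their range. The effect in males was -0.62 ± 0.32 (unadjusted p 0.0755, adjusted p 1), and -0.20 without natural male 2. Factor V, factor XIII B and the fibrinogen chains had a median of -0.54 in males, and of -0.20 without natural male 2. Fgb was at -0.54 ± 0.41 and Fgg at -0.57 ± 0.48.

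Natural males 2 and 3 also stood apart in the acute-phase genes. The 23 companions on that list, such as the serum amyloids, haptoglobin and hemopexin, took 5.62% and 3.95% of their counts, 1.75% in natural male 1 and 1.36% to 2.83% in the other 9 libraries. Of these genes 22 of 23 were below 0 after IVF in males, with a median of -1.09 and 0 called. Hepatocyte markers summed to 73408 to 81263 CPM in IVF males and 85913 to 100338 CPM in natural males. Kupffer cell markers, none of them at 0, summed to 144 to 230 CPM and 269 to 305 CPM in the same groups. With TMM scaling neither pair of ranges overlapped. By share of raw counts the Kupffer cell ranges stayed apart, but the hepatocyte ranges did not. Natural male 2, at 7.338% of counts, had a lower hepatocyte share than any IVF male (lowest 7.345%). The part of these shifts in the member values was not tested.

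The ratio of the fibrinogen chains set the 2 smallest libraries apart. Per transcript length, Fgg stood at 2.10 and 2.24 times Fga in IVF female 1 and natural female 2 and at 0.806 to 1.05 times in the other 10 libraries. Fgb stood at 1.02 and 0.892 times Fga in those 2 and at 0.485 to 0.656 in the others. C4b over C3 was 0.0352 and 0.0319 in the same 2 libraries and 0.0927 to 0.159 elsewhere. Kng2 over Kng1, from neighbouring paralogs whose reads could be shared, ran from 0.0910 to 0.149. 

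**Figure D5:**
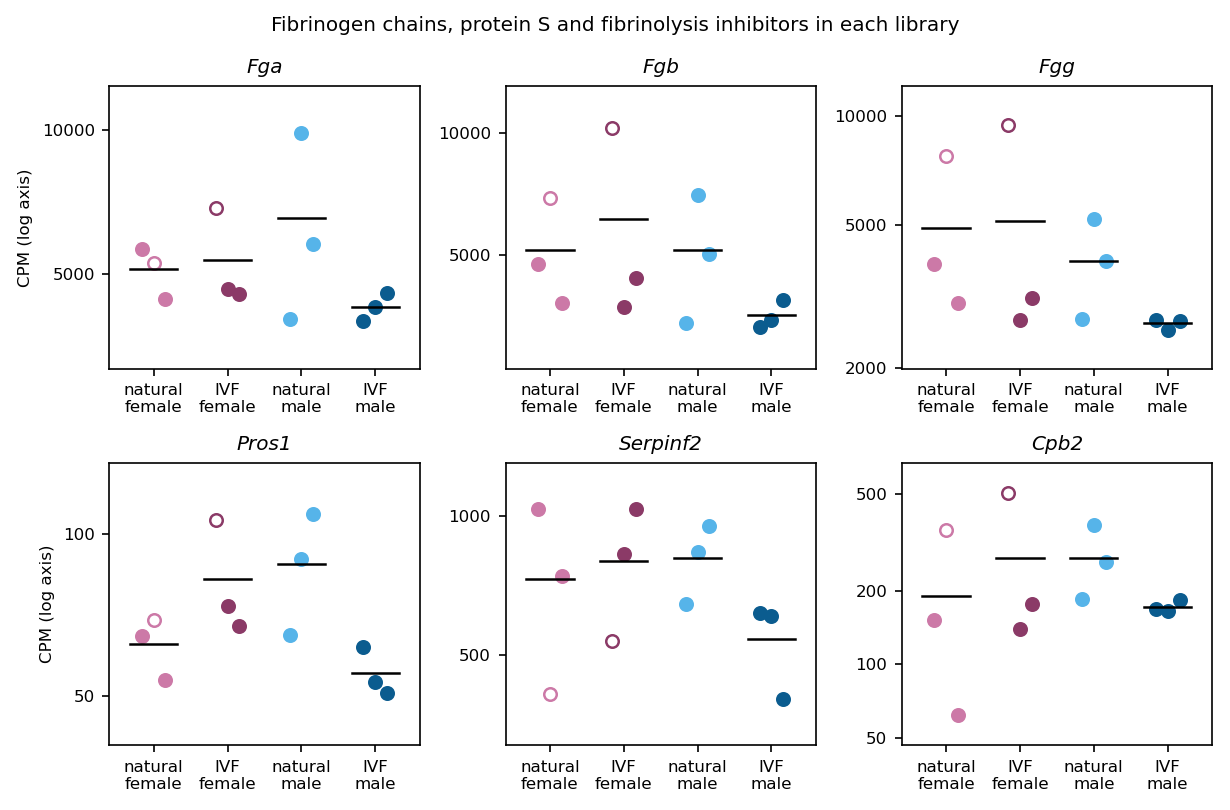
TMM-scaled CPM on a log axis for the 3 fibrinogen chains, Pros1, Serpinf2 and Cpb2 in each library, by sex and mode of conception. Points are libraries, black lines group means and open points the 2 smallest libraries. The open points are the highest female values of Fgb, Fgg and Cpb2 and the lowest of Serpinf2, and natural male 2 has the highest Fga, at 9851 CPM.

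Plasminogen (Plg), the precursor of plasmin, was at 3535, 3283 and 2996 CPM in IVF females, 2730, 3195 and 1670 CPM in natural females, 1808, 2132 and 1981 CPM in IVF males and 2219, 2541 and 2808 CPM in natural males. With TMM scaling IVF males were below all natural males and all IVF females. The effect of IVF was -0.35 ± 0.25 in males and 0.37 ± 0.25 in females, and their difference was -0.72 ± 0.35 (unadjusted p 0.0613, adjusted p 1). Some members were singled out after their values were seen. The inhibitors of fibrinolysis Serpinf2 (-0.58 ± 0.35) and Cpb2 (-0.66 ± 0.58) were likewise lower in all 3 IVF males than in all 3 natural males, without being called. The same held, again with TMM scaling, for Hc, F7, Fgg, Serpinc1 and Serpind1. For Masp1 the difference of the IVF effects was -0.72 ± 0.35 (adjusted p 1).

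The leading genes of the remaining groups were not called in any contrast. Prothrombin (F2) was at 1066, 1582 and 1639 CPM in IVF females, 1645, 921 and 1448 CPM in natural females, 1461, 1373 and 1150 CPM in IVF males and 1467, 1391 and 1586 CPM in natural males. Antithrombin (Serpinc1), the main inhibitor of thrombin, was at 1217, 1502 and 1511 CPM, 1578, 1066 and 1203 CPM, 1148, 1209 and 1056 CPM, and 1296, 1248 and 1352 CPM in the same order of groups. For F2 the lowest female values were those of the 2 smallest libraries, and for Serpinc1 the IVF males were below all IVF females while the natural groups overlapped. Kininogen 1 (Kng1), the source of bradykinin, was at 3392, 1793 and 2010 CPM in IVF females, 1659, 2535 and 1543 CPM in natural females, 1349, 1679 and 1591 CPM in IVF males and 1557, 2280 and 2009 CPM in natural males. Its highest values were those of the same 2 libraries. Their sex differences were 0.02 ± 0.18, -0.15 ± 0.14 and -0.31 ± 0.21 (log2), with adjusted p of 0.961, 0.555 and 0.392.

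The 22 members not given library by library ran, in mean level over the 12 libraries, from 79.1 CPM for C2 to 5001 CPM for Fgb. In the sex contrast they lay between -0.62 (Fgg) and 0.53 (C1ra), with 0 called. In the IVF contrasts they lay between -0.15 (C8g) and 0.53 (Cpb2) in females and between -0.66 (Cpb2) and 0.0044 (Proc) in males. Among the contact factors F11, F12 and Klkb1 the sex differences were -0.16 ± 0.22, 0.13 ± 0.21 and -0.05 ± 0.13, and protein C (Proc) was at 0.08 ± 0.13.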

How the data were processed

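Poly-A-selected liver RNA was sequenced on a NextSeq per the labels' protocols. The deposited files hold raw counts, 1 whole number for each gene symbol and library, and these counts were used as deposited. The submitters' processing notes name Trimmomatic 0.32, STAR 2.3.0e, featureCounts 1.5.0 and the build mm10. The strand setting, the annotation and the treatment of reads shared by near-identical genes are not given in the sources used here. No per-sample column was left unused (0 columns).

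Genes were filtered with filterByExpr, which left 13204 genes, scaled by TMM and fitted over all 12 libraries in 1 model of 4 groups with edgeR 4.0.16 (R 4.3.3), using the quasi-likelihood test and Benjamini-Hochberg adjustment over all genes tested. A gene was called at an adjusted p under 0.05. Contrasts were IVF against natural conception in each sex, their difference, and males against females after natural conception, after IVF and averaged over both. The standard error is the log2 fold change divided by the square root of F. Alternatives used DESeq2 1.42.0, limma 3.58.1 (voom), other scalings and filters, and fewer libraries. The code was also tried on simulated counts with the same spread for every gene. That setting differs from these libraries, so the trial is not used as support here.

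Positions came from GENCODE M21 (GRCm38), which matched 23805 of 24527 symbols and all 42 members. Promoters came from RefSeq. Of the motifs and genes listed for these steps, some are not reported here. Per-length ratios divide by transcript length. Libraries of a group differed well beyond sampling noise (lowest chi-square per degree of freedom 83.2).

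Members and lists were chosen with earlier results of these data known. Values in every library are given for members called in a contrast of conception or in the mean sex contrast, for the 4 of smallest unadjusted p in each conception contrast, and for the most abundant member of each role group. From the other lists, called genes are named, up to 4 of smallest adjusted p. Genes beyond this rule (such as C8b, C8g, C1ra, C1s1, Mbl1, Cfb, C2, F10, F13b, Hrg, Fgb, Fgg and C7) were chosen after their values were seen.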

Additional observations from a re-analysis of the deposited data

How the results depend on the processing

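The counts of members called in the sex contrasts moved with the processing, and those of the IVF contrasts and their difference stayed at 0 in all alternatives run. In the mean sex contrast 6 members were called, 10 by library size alone and 2 to 5 with 1 library left out. After natural conception 2 were called, 7 with DESeq2, 6 with a covariate for the 2 smallest libraries and 1 to 4 with 1 library left out. After IVF 1 was called, 3 with DESeq2, 3 with the covariate, 2 by library size alone, 3 without the 2 smallest libraries and 1 to 2 with 1 library left out. The calls over all genes tested moved as well. In the mean sex contrast they were 951, 1625 by library size alone and 519 to 810 with 1 library left out. After natural conception they were 234, 678 with DESeq2, 458 with the covariate and 111 to 263 with 1 library left out. After IVF they were 289, 721 with DESeq2, 438 with the covariate and 313 by library size alone. They were 320 without the 2 smallest libraries and 137 to 348 with 1 library left out. The IVF effect on C9 in females reversed from 0.73 to -0.056 (log2) without IVF female 1, where C9 was highest, and ran up to 1.089 with another library left out. For the other differences the cause was not tested. No paired analysis was possible because the groups share fewer than 2 numbers in the titles: IVF female 1 and IVF male 2 carry the same one, and no other libraries do. With 3 libraries per group, small differences can be missed, and the 2 smallest libraries are both female.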
